A study of Mus musculus with 19 samples.

Results

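Splenic PMN-MDSC of newborn mice and of adult mice were compared in 11 of the 19 RNA-seq libraries of the study. PMN-MDSC are the neutrophil-like form of myeloid-derived suppressor cells, myeloid cells that can restrain T cell responses. The 5 newborn libraries came from spleens of mice aged 7 days and the 6 adult libraries from mice aged 6 to 8 weeks. Libraries were chosen by their labels, which give cell type, age, replicate number and batch; the other 8 libraries hold M-MDSC, the monocyte-like form. Cells of both ages were enriched on beads, one protocol naming CD11b and another Ly6G, and PMN-MDSC were sorted as CD11b+ Ly6G+ cells with intermediate Ly6C. No treatment separates the ages, and the labels name neither strain, genotype nor sex, nor the number of animals behind a library. The title ties the study to the passing accumulation of these cells after birth.

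Neutrophils fill their granules in a fixed order while they mature. Azurophil granule proteins such as myeloperoxidase are made at the promyelocyte stage, specific granule proteins such as lactoferrin at the myelocyte stage and gelatinase granule proteins later still. Secretory vesicles and chemokine receptors mark the mature cell, which has left the cell cycle and no longer transcribes most granule genes. The transcription factor C/EBP epsilon drives specific granule genes, and mature neutrophils respond to cytokines, interferons and microbes with NF-kB and interferon target genes.

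Both batches held both ages, with adult replicates 1, 2 and 3 and newborn replicates 2 and 3 in batch 1, and adult 32, 33 and 34 and newborn 37, 38 and 39 in batch 2. Total counts ran from 827744 to 2965896 in batch 1 and from 14026193 to 45135933 in batch 2. Libraries of different batches resembled each other in pairs: over 6870 genes, the deviations from the mean of their age and batch correlated at 0.737 for adult 1 and 32, 0.694 for adult 2 and 33, 0.747 for adult 3 and 34, 0.461 for newborn 2 and 37 and 0.552 for newborn 3 and 38. Centring on these means pushes the other pairs of the same age towards negative values. Those ran from -0.575 to 0.249, with the highest for newborn 2 and 39. Newborn 2 and 3, the only newborn libraries of batch 1, are mirror images, so the newborn pairs rest on less than the adult pairs. The TMM scaling factors of the adult pairs were also close, at 1.1245 and 1.1236, 1.1657 and 1.1667, and 1.2763 and 1.2622. The labels do not say that these pairs share a source, and the 11 libraries may therefore stand for fewer separate samples. The main fit treats all 11 as separate, so its standard errors and adjusted p may be too small. Batch 2 may then hold the same samples as batch 1 and is not a separate check. Counts of called genes are also given for batch 2 alone, which holds 1 library of each pair, over all genes and for the lists where a count moved by over 1.5 times. Levels are in CPM, counts divided by the library size after TMM scaling; TMM factors were 1.1236 to 1.2763 in adults and 0.7696 to 0.8466 in newborns. A number after a gene that rose or fell is its log2 change, newborn minus adult. Newborn values are listed in the order of replicates 2, 3, 37, 38 and 39, and adult values as the lowest, the median and the highest of 6.

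The sorted cells carried the genes of the sort. Ly6g, which encodes the Ly6G antigen (ENSMUSG00000022582, GRCm38 chr15:75155240-75159126), stood at 11.8, 19.8 and 23.4 CPM in adults and at 202, 194, 242, 215 and 173 in newborns. Itgam, which encodes CD11b (ENSMUSG00000030786, GRCm38 chr7:128062640-128118491), stood at 498, 569 and 603 CPM in adults and at 3424, 3733, 3722, 3886 and 3209.8 in newborns. All newborn libraries were above all adult libraries for both genes, and the differences were 3.40 ± 0.13 (SE, adjusted p = 1.33e-10) for Ly6g and 2.69 ± 0.09 (SE, adjusted p = 4e-11) for Itgam. Ly6c2, of the pair behind the Ly6C antigen, rose by 3.47, while Ly6c1 rose by 1.49 with overlapping groups and did not pass the threshold in batch 2 alone (adjusted p = 0.0953). Csf1r, the monocyte growth factor receptor, stood at 502, 573 and 946 CPM in adults and 437, 532, 472, 580.3 and 461 in newborns, with overlapping groups (adjusted p = 0.054). The summed level of the 12 neutrophil markers was 8334 to 10309 CPM in adults and 43049 to 50705 in newborns. Of these markers 8 rose and 3 fell, and much of the newborn sum was S100a8 and S100a9, with newborn means of 19416 and 12064 CPM.

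Sex-linked genes differed between the ages. Xist, transcribed from the inactive X chromosome of females, ran from 1325 to 2047 CPM in adults and from 162.5 to 477 CPM in newborns. Kdm5d, a gene of the Y chromosome, had 0 counts in every adult library and 3.45 to 19.9 CPM in every newborn library. The ages thus differed in the sexes that went into the libraries, and effects of age and of sex cannot be told apart here.

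Age separated the libraries widely. The first principal component of log2 CPM held 72.9% of the variance and placed all adult libraries between -76.1 and -64.6 and all newborn libraries between 75.3 and 87.7. Of 14479 genes tested, 4710 (32.5%) were higher and 4838 (33.4%) lower in newborns, 65.9% in all, by edgeR's quasi-likelihood test at an adjusted p under 0.05. In batch 2 alone 4439 (29.0%) were higher and 3948 (25.8%) lower of 15327. The median change of all genes was -0.10 on the log2 scale. With upper-quartile scaling that median moved to -0.33 and the split to 3839 higher (26.5%) and 6026 lower (41.6%), so small changes depend on the scaling and are read against this shift of -0.23. With so many genes called, a list's share of higher or lower members is read against 32.5% and 33.4%. The share of all genes whose ages did not overlap was not counted, so a lack of overlap describes only the genes named with it.

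By number of counts, not corrected for length, the leading genes of the adult libraries were Malat1, Rn7s1, Rn7s2, Actb, Rpph1 and Rn7sk, and those of the newborn libraries were Ltf, Actb, S100a8, Rn7s2, Rn7s1 and Lyz2. Malat1, a nuclear long noncoding RNA (ENSMUSG00000092341, GRCm38 chr19:5795690-5802672), fell from 12338 CPM (median of adults) to 3871 CPM (median of newborns), a difference of -1.69 ± 0.08 (SE, adjusted p = 5.4e-10). Rn7s1 and Rn7s2, near-identical genes of the signal recognition particle RNA, had equal estimated counts in every library, so reads were divided between them, and both rose by 0.67. Rpph1, the RNA of RNase P, rose by 0.40 and Rn7sk, a regulator of transcription elongation, by 0.48, both with overlapping groups and neither past the threshold in batch 2 alone (adjusted p = 0.0587 and 0.115). Actb, cytoskeletal actin, rose by 1.51. The leading newborn genes thus included a specific granule protein, a calcium-binding S100 protein and lysozyme, and specific granule genes took 6.44% of newborn counts against 0.408% of adult counts.

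Promoter sequence is shown for genes of the lists described below, because several of these lists hold a short sequence motif at a higher share than all tested genes. The motif of C/EBP factors was searched as TTGCNNAA, that of interferon-activated factors as TTTC and again TTTC with any 2 bases between, that of NF-kB as GGG and TTTCC with any 2 bases between, the cell cycle element CHR as TTTGAA, the CCAAT box as CCAAT, the TATA box as TATAAA and that of E2F as TTTCCCGC, on both strands of the 250 bases before the RefSeq start, where 9951 tested genes had an entry. Among all of these, 7.5% held the C/EBP letters, 2.8% the interferon letters, 1.5% the NF-kB letters, 11% the CHR letters and 36.7% the CCAAT letters. The TATA letters were in 6.5% and the E2F letters in 1.7%. The C/EBP letters were in 5 of 15 specific granule genes and 3 of 8 gelatinase granule genes with an entry, and in 0 of 10 azurophil granule genes. The interferon letters were in 15 of 38 antiviral genes and in 9 of 9 interferon-inducible GTPase genes. The NF-kB letters were in 6 of 22 NF-kB feedback genes, and also in 2 of 15 specific granule genes. The CCAAT letters were in 33 of 45 mitosis genes, 21 of 36 replication genes and 4 of 5 stefin genes. The C/EBP letters were also in 2 of 9 interferon-inducible GTPase genes. The TATA letters were in 6 of 38 antiviral genes and the E2F letters in 3 of 36 replication genes. The CHR letters were in 15 of 45 mitosis genes, and at a like share in other lists, with 5 of 15 specific granule genes and 13 of 38 antiviral genes. The interferon letters were also in 6 of 55 cytosolic ribosomal protein genes. Only genes with a match are printed. The C/EBP letters had no match in Camp, Olfm4, Cd177, Chil3, Lyz2, Stfa3 and S100a8, among others. The interferon letters had none in Oasl1 and the CHR letters none in Aurka. A match is a description of the letters and not a measured binding site. Stretches of 100 bases are printed 5′ to 3′ on the strand of the gene, from RefSeq sequence of GRCm38.p6, with the motif in capitals; Ltf to Fcnb show the C/EBP letters, Ifit1 to Gbp2 the interferon letters, Cxcl2 the NF-kB letters and Cdc20 and Cdk1 the CHR letters.
Ltf (chr9:111019167-111019266, plus strand): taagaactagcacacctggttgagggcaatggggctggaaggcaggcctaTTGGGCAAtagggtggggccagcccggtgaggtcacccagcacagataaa
Ngp (chr9:110419708-110419807, plus strand): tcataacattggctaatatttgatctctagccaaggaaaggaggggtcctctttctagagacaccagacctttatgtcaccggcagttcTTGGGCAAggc
Mmp8 (chr9:7558329-7558428, plus strand): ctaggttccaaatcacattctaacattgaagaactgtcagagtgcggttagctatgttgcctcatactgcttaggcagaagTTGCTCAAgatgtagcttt
Fcnb (chr2:28084952-28085051, minus strand): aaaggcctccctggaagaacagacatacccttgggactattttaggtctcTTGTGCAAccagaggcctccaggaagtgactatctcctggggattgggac
Ifit1 (chr19:34640754-34640853, plus strand): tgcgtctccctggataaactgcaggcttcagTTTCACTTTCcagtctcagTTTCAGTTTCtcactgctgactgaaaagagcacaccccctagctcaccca
Ifit3 (chr19:34583357-34583456, plus strand): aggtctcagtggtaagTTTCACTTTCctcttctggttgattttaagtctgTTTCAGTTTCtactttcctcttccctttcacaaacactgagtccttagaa
Gbp2 (chr3:142620554-142620653, plus strand): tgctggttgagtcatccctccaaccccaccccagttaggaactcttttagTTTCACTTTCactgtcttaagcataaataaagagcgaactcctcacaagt
Cxcl2 (chr5:90903771-90903870, plus strand): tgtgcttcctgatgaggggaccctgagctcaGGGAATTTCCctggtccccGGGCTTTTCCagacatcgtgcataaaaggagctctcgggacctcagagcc
Cdc20 (chr4:118437344-118437443, minus strand): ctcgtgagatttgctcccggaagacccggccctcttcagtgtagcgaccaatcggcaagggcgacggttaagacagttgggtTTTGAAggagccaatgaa
Cdk1 (chr10:69352913-69353012, minus strand): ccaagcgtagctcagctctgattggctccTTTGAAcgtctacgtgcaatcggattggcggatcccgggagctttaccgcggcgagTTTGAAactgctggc

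Most azurophil granule genes rose. Of 15 measured members, 12 rose and 2 fell, with a median log2 change of 2.94. Mpo, myeloperoxidase (ENSMUSG00000009350, GRCm38 chr11:87793581-87804413), stood at 0.572, 1.83 and 5.66 CPM in adults and 41.9, 43.9, 43.7, 46.1 and 61.1 in newborns, a difference of 4.63 ± 0.36 (SE, adjusted p = 9.53e-08). Elane, neutrophil elastase (ENSMUSG00000020125, GRCm38 chr10:79886247-79888215), stood at 0.0636, 1.2 and 3.42 CPM in adults and 5.62, 8.45, 7.49, 9.97 and 19 in newborns, a difference of 3.42 ± 0.67 (SE, adjusted p = 0.000519). Neither gene overlapped between ages, and per length both were low in newborns beside Orm1 and Ltf of the specific granule list: the newborn means were 13.8 CPM per kb of exon for Mpo and 10.3 for Elane against 43 for Orm1 and 8152 for Ltf. Lyz2, lysozyme (ENSMUSG00000069516, GRCm38 chr10:117277331-117282321), stood at 890.3, 925 and 989.5 CPM in adults and 14155, 16800.4, 15558, 18192 and 13848 in newborns, a difference of 4.07 ± 0.10 (SE, adjusted p = 5.04e-12). The tetraspanin Cd63 rose by 3.54, the serine protease Prss57 by 4.17 and the lysosomal glucuronidase Gusb by 1.56. Ctsc, the protease that activates the granule serine proteases, fell (-1.38).

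Specific granule genes held the largest share of newborn counts among the granule classes. Of 18 measured members, 16 rose and 1 fell, with a median log2 change of 3.46. Ltf, lactoferrin (ENSMUSG00000032496, GRCm38 chr9:111019271-111042767), stood at 743, 877 and 1119 CPM in adults and 26029.9, 29109, 28735, 31010.3 and 25730.1 in newborns, a difference of 4.94 ± 0.14 (SE, adjusted p = 1.08e-11). Camp, the cathelicidin precursor (ENSMUSG00000038357, GRCm38 chr9:109847379-109849617), stood at 130.3, 173 and 241 CPM in adults and 7456, 7363, 8433, 8389 and 7762 in newborns, a difference of 5.40 ± 0.17 (SE, adjusted p = 2.36e-11). Ngp, neutrophilic granule protein (ENSMUSG00000032484, GRCm38 chr9:110419747-110423012), stood at 394, 488 and 535 CPM in adults and 14604, 11667, 16163, 12429.7 and 13832 in newborns, a difference of 4.85 ± 0.13 (SE, adjusted p = 6.77e-12). For these genes no newborn library came near an adult one. Olfm4, olfactomedin 4, which marks a subset of neutrophils (ENSMUSG00000022026, GRCm38 chr14:79984081-80023139), stood at 7.98, 13.5 and 18.6 CPM in adults and 1829.5, 1577, 2199, 1770.1 and 1795 in newborns, a difference of 7.06 ± 0.16 (SE, adjusted p = 4.76e-12). Lcn2, the siderophore-binding lipocalin, rose by 4.61 and Cd177, a neutrophil surface protein stored in these granules, by 4.84, each with an adjusted p of at most 6.77e-12. The chitinase-like Chil3 rose by 4.63, the acute phase protein Orm1 by 4.60 and the peptidoglycan-binding Pglyrp1 by 3.47. Cyp4f18, a hydroxylase that inactivates leukotriene B4, was the 1 member that fell (-0.75), and the protease inhibitor Slpi was not called (0.12, adjusted p = 0.601).

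Gelatinase granule genes rose throughout the list. Of 10 measured members, 10 rose and 0 fell, with a median log2 change of 2.50. Mmp8, neutrophil collagenase (ENSMUSG00000005800, GRCm38 chr9:7558456-7568485), stood at 211, 227 and 242 CPM in adults and 2324, 2006, 2808, 2359.6 and 1944 in newborns, a difference of 3.33 ± 0.11 (SE, adjusted p = 2.61e-11). Fcnb, ficolin B (ENSMUSG00000026835, GRCm38 chr2:28076378-28084885), stood at 2.23, 4.27 and 7.02 CPM in adults and 348, 452, 377, 489 and 437 in newborns, a difference of 6.52 ± 0.28 (SE, adjusted p = 3.39e-10). Mmp9, gelatinase itself, rose by 2.31 and the membrane-bound Mmp25 by 3.14. The groups did not overlap for any of these 4 genes.

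Genes of secretory vesicles and the mature surface did not move as a block: of 12 measured members, 5 rose and 6 fell, with a median log2 change of -0.04. The formyl peptide receptors Fpr1 and Fpr2 rose by 2.45 and 3.13. Csf3r, the receptor of granulocyte colony-stimulating factor (ENSMUSG00000028859, GRCm38 chr4:126024550-126044440), stood at 1674, 2088 and 2261 CPM in adults and 689.9, 782, 783, 802 and 568 in newborns, a difference of -1.47 ± 0.12 (SE, adjusted p = 1.47e-07). Cxcr2, a chemokine receptor of mature neutrophils (ENSMUSG00000026180, GRCm38 chr1:74153989-74161246), stood at 279.9, 350.0 and 448 CPM in adults and 451, 381, 526, 474 and 399.7 in newborns; the groups overlapped and the difference of 0.29 ± 0.14 (SE, adjusted p = 0.0745) was not called. Cxcr1, its close relative, had 890 counts over the adult libraries and 1 over the newborn libraries, a ratio of 614 with an exact 95% binomial interval of 110.0 to 24291. Alpl, alkaline phosphatase of the secretory vesicles, fell (-1.66), as did Anpep, aminopeptidase N (-1.49).

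**Figure D1:**
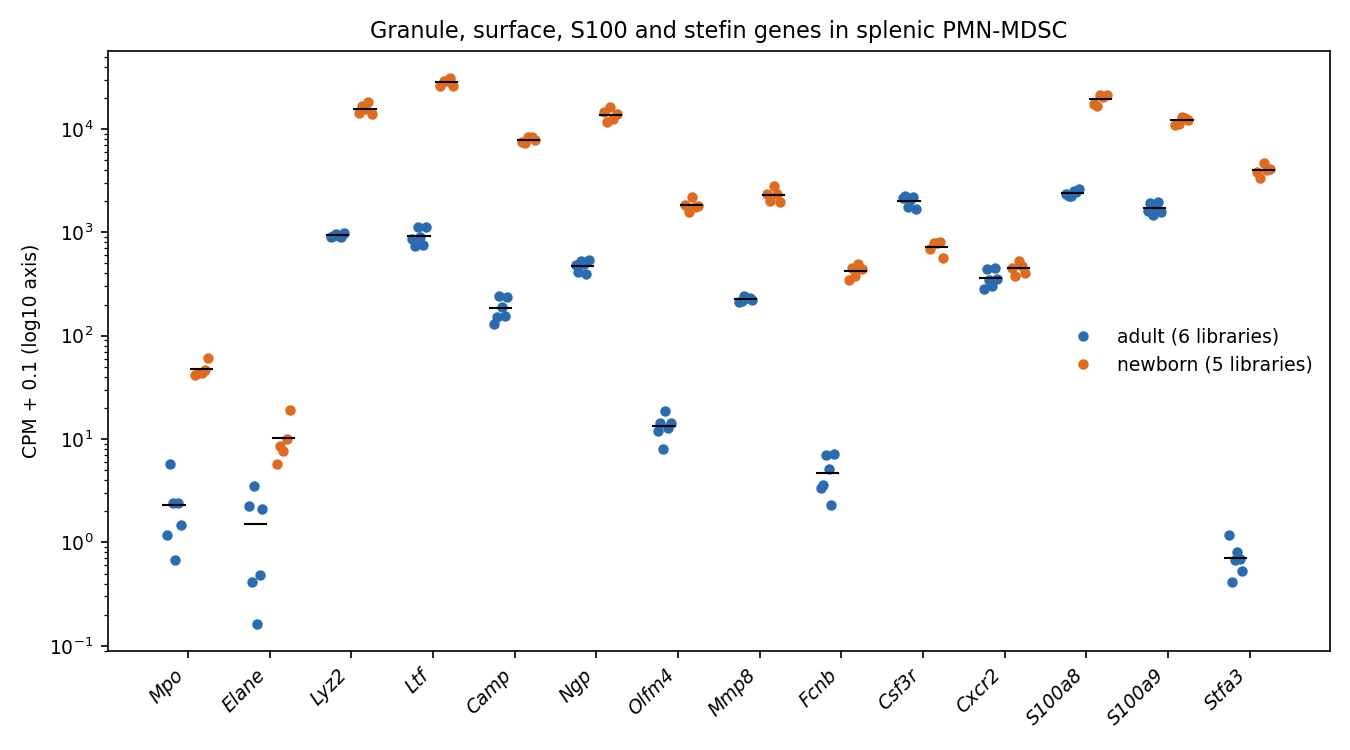
Level of granule, surface and S100 genes in each of the 11 PMN-MDSC libraries, in CPM on a log10 axis with 0.1 CPM added, ordered by granule class; blue points are the 6 adult and orange points the 5 newborn libraries, and black lines mark the mean of each age. Ltf, Camp, Ngp and Olfm4 are apart in every library, Csf3r is higher in adults, and Cxcr2 overlaps.

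S100 genes rose with the granule genes. Of 8 measured members, 5 rose and 2 fell, with a median log2 change of 1.51. S100a8 and S100a9 encode the subunits of calprotectin, a metal-binding protein of the neutrophil cytosol. S100a8 (ENSMUSG00000056054, GRCm38 chr3:90668978-90670035) stood at 2236, 2405 and 2602 CPM in adults and 17421, 16665, 21458, 20316 and 21219 in newborns, a difference of 2.99 ± 0.08 (SE, adjusted p = 5.52e-12). S100a9 (ENSMUSG00000056071, GRCm38 chr3:90692632-90695721) stood at 1461, 1693 and 1941 CPM in adults and 10994, 11211, 13156, 12843 and 12117 in newborns, a difference of 2.80 ± 0.09 (SE, adjusted p = 4e-11). S100a11 rose by 1.34, while S100a10 and S100a4 fell (-1.47 and -1.23), S100a4 with overlapping groups.

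The stefin A cluster of chromosome 16, which encodes small inhibitors of cysteine proteases, had the largest median change of the lists described here. Of 10 measured members, 9 rose and 1 fell, with a median log2 change of 10.44, and the 1 that fell was Cstb, the single-copy stefin B (-1.08) with overlapping groups and an adjusted p of 0.0649 in batch 2 alone. Stfa3 (ENSMUSG00000054905, GRCm38 chr16:36450537-36455392) stood at 0.315, 0.58 and 1.08 CPM in adults and 3794, 3371, 4650.1, 4018 and 4113 in newborns, a difference of 12.86 ± 0.17 (SE, adjusted p = 1.06e-14). Stfa2 (ENSMUSG00000022902, GRCm38 chr16:36403992-36408457) stood at 1.08, 1.9 and 4.13 CPM in adults and 4612, 1835, 5973, 2269 and 4053 in newborns, a difference of 10.39 ± 0.40 (SE, adjusted p = 1.25e-10). Stfa1 (ENSMUSG00000071562, GRCm38 chr16:36276951-36285373) stood at 0, 1.66 and 3.42 CPM in adults and 3883, 1693, 5319.9, 2373 and 2985 in newborns, a difference of 10.49 ± 0.41 (SE, adjusted p = 1.32e-10). Newborn 2 and 37 were the highest newborn libraries for Stfa1 and Stfa2 and newborn 3 and 38 the lowest, and all were above every adult library. The unnamed members BC100530, 2010005H15Rik and Gm5483 rose by 12.02, 13.37 and 7.84, and Gm5483 had the highest adult level of the A cluster named here at 18.3, 22.6 and 29.9 CPM. These genes are near-identical copies, so the split of counts among them is uncertain, and their sum took 1.94% of newborn counts against 0.00955% of adult counts.

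Eosinophil granule genes were part of the same set of large changes. Epx, eosinophil peroxidase (ENSMUSG00000052234, GRCm38 chr11:87864000-87875536), had 0 counts in all adult libraries and 89.4, 147, 102, 156 and 38.3 CPM in newborns. Against a floor of 3 counts over the adult libraries this was at least 3632-fold higher. The ribonuclease genes Ear6 (ENSMUSG00000062148, GRCm38 chr14:51853699-51854643) and Ear1 (ENSMUSG00000072601, GRCm38 chr14:43818765-43875517) also had 0 adult counts; Ear6 stood at 36.3, 48.7, 30.9, 55.9 and 21 CPM in newborns, at least 1316-fold higher, and Ear1 at 19.4, 43.5, 20.7, 41 and 17.4, at least 969-fold higher. Prg2, major basic protein (ENSMUSG00000027073, GRCm38 chr2:84980461-84983632), stood at 0, 0.258 and 0.944 CPM in adults and 209, 398, 247, 433 and 153 in newborns, a difference of 8.98 ± 0.50 (SE, adjusted p = 3.17e-09). In all 4 genes newborn 3 and 38 were the highest libraries and newborn 39 the lowest. Of 10 measured eosinophil markers 7 rose, while Siglecf and Ccr3, surface markers of mature eosinophils, were not called (-0.25 and -0.39) and Il5ra, the interleukin 5 receptor, fell (-2.02); under upper-quartile scaling the list counted 7 higher and 3 lower. Alox15, a lipoxygenase that eosinophils and macrophages make, rose by 5.29. The summed level of the list was 69.7 to 138 CPM in adults and 379.7 to 943 in newborns, Ear10 was at 0 in both, and whether eosinophil precursors or the PMN-MDSC themselves held these transcripts was not tested; in sorted bulk cells fewer cells of a type and less RNA per cell cannot be told apart.

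The remaining genes with the largest rise were Pknox2, Has2 and Pde10a. Pknox2, a homeobox transcription factor (ENSMUSG00000035934, GRCm38 chr9:36890982-37147407), stood at 0, 0 and 0.284 CPM in adults and 33.2, 42.3, 34.4, 38.5 and 29 in newborns, a difference of 8.15 ± 0.45 (SE, adjusted p = 3.22e-09). Has2, hyaluronan synthase (ENSMUSG00000022367, GRCm38 chr15:56665627-56694539), stood at 0, 0.457 and 0.944 CPM in adults and 53.7, 38.6, 73, 47.4 and 69.3 in newborns, a difference of 6.85 ± 0.26 (SE, adjusted p = 1.13e-10). Pde10a, a cyclic nucleotide phosphodiesterase (ENSMUSG00000023868, GRCm38 chr17:8525372-8986648), stood at 0, 0.466 and 0.636 CPM in adults and 38.3, 34.2, 39.9, 44.4 and 45.2 in newborns, a difference of 6.51 ± 0.23 (SE, adjusted p = 4.88e-11). All 3 were under 1 CPM in every adult library, and the lowest newborn value among them was 29 CPM.

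Transcription factors of myeloid cells moved in both directions: of 40 measured, 15 rose and 20 fell, with a median log2 change of -0.32. Cebpe, which encodes C/EBP epsilon (ENSMUSG00000052435, GRCm38 chr14:54710360-54712174), stood at 7.54, 8.87 and 18.8 CPM in adults and 579, 629.5, 540.5, 583 and 466 in newborns, a difference of 5.71 ± 0.20 (SE, adjusted p = 6.89e-11). Every newborn library was above every adult library by a wide margin. Its relatives divided: Cebpd rose by 1.62, Cebpb, the factor of emergency granulopoiesis, fell (-1.73), and Cebpa was not called (-0.10, adjusted p = 0.722). Gfi1, the repressor that steers progenitors to granulocytes, was not called either (0.30, adjusted p = 0.453). Erg, an Ets factor of progenitors, rose by 5.38, the LIM protein Lmo4 by 2.78, Myb by 1.68 and Spi1, which encodes PU.1, by 1.25. Irf8, which steers cells to the monocyte line, fell (-2.34), as did Irf5 (-2.11), Irf4 (-3.99) and Klf4, a factor of monocytes, (-3.40). Myc, a driver of growth and ribosome production, fell (-2.81). Nr4a3, an orphan nuclear receptor induced by activation (ENSMUSG00000028341, GRCm38 chr4:48045153-48086447), stood at 10.8, 59.8 and 135 CPM in adults and 1.53, 1.61, 2.86, 1.42 and 2.11 in newborns, a difference of -5.02 ± 0.67 (SE, adjusted p = 1.93e-05).

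Some genes of the fetal programme were higher in newborn cells. Of 17 listed genes, 8 passed the expression filter, which a gene can pass through its level at 1 age alone. Of these 8 measured members, 5 rose and 1 fell, with a median log2 change of 1.79. Igf2bp3, an oncofetal RNA-binding protein (ENSMUSG00000029814, GRCm38 chr6:49085223-49214957), stood at 1.72, 4.61 and 5.13 CPM in adults and 53.1, 63.6, 58, 59.9 and 62.3 in newborns, a difference of 3.92 ± 0.23 (SE, adjusted p = 4.91e-09). Lin28a, which blocks maturation of let-7 microRNAs (ENSMUSG00000050966, GRCm38 chr4:134003330-134018841), stood at 4.31, 10.5 and 15.4 CPM in adults and 181, 208, 190.3, 227 and 191 in newborns, a difference of 4.21 ± 0.19 (SE, adjusted p = 5.56e-10). Arid3a, a chromatin factor of fetal haematopoiesis (ENSMUSG00000019564, GRCm38 chr10:79927043-79955018), stood at 93.9, 115 and 136 CPM in adults and 786, 928, 808, 908 and 736 in newborns, a difference of 2.89 ± 0.11 (SE, adjusted p = 1.31e-10). The ages did not overlap for any of these 3. The imprinted adaptor Grb10 rose by 4.50 from a level near 0. Igf2bp2 fell (-1.32), with overlapping groups and an adjusted p of 0.0647 in batch 2 alone, and Hmga2, a chromatin protein of fetal stem cells, was not called (-0.33, adjusted p = 0.388).

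Genes of the cell cycle rose. Of 43 measured genes of DNA replication, 34 rose and 1 fell, with a median log2 change of 1.09, and of 54 genes of mitosis, 51 rose and 1 fell, with a median log2 change of 3.01. Under upper-quartile scaling the replication genes counted 30 higher and 3 lower. Mki67, which encodes the proliferation antigen Ki-67 (ENSMUSG00000031004, GRCm38 chr7:135689784-135716361), stood at 44.5, 51.6 and 71.8 CPM in adults and 479, 485, 530.5, 556 and 641 in newborns, a difference of 3.25 ± 0.13 (SE, adjusted p = 1.23e-10). Newborn libraries were all above adult ones, and adult libraries were not at 0. Cdc20, an activator of the anaphase-promoting complex whose promoter is printed above, rose by 3.84, the kinesin Kif4 by 3.26, the mitotic kinase Aurka by 3.42 and Cdk1, the kinase that starts mitosis, by 4.00. Among replication genes E2f8, a repressor induced in S phase, rose by 3.94, the helicase cofactor Cdc45 by 3.07, the histone chaperone subunit Chaf1a by 2.54 and E2f2 by 2.16. Pcna was not called (0.28, adjusted p = 0.0843), nor was Cdt1 (-0.39, adjusted p = 0.107). All 44 measured replication-dependent histone genes rose, with a median of 3.91 and a share of 0.963% of newborn against 0.122% of adult counts. Hist1h2af rose by 5.62, Hist1h3b by 4.15, Hist1h2bf by 4.38 and Hist2h3b by 3.86; the copies are similar, and reads may be divided among them. Of 17 inhibitors of the cell cycle, 7 rose and 5 fell, with a median log2 change of -0.03: Mxi1, Cdkn2d and Cdkn2c rose by 2.19, 1.66 and 2.93, and Btg1, an antiproliferative gene of resting cells, fell (-1.47).

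Red cell precursors also divide, and their genes moved in the same direction. Of 19 erythroid markers 18 rose, with a summed level of 209.9 to 499.9 CPM in adults and 3088 to 5409 in newborns, or 0.416% of newborn counts. Among stem and progenitor markers 8 of 12 rose and 3 fell, with a summed level of 117 to 165 CPM in adults and 295 to 377 in newborns; Kit rose by 2.87 and Hlf by 4.16, while Flt3 fell (-1.86). The part of red cell precursors and progenitors in the rise of cell cycle genes was not tested.

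The phagocyte oxidase makes superoxide in the neutrophil. Of its 8 measured genes, 7 rose and 1 fell, with a median log2 change of 1.95. Cybb, the catalytic subunit gp91phox (ENSMUSG00000015340, GRCm38 chrX:9435252-9487771), stood at 407, 451 and 470.4 CPM in adults and 3264, 3069, 3806, 3497 and 3589 in newborns, a difference of 2.94 ± 0.08 (SE, adjusted p = 7.12e-12). Its partner Cyba rose by 2.25 and the cytosolic subunits Ncf1 and Ncf4 by 2.77 and 2.53, all without overlap. The small GTPase Rap1a fell (-0.51), with overlapping groups and an adjusted p of 0.0843 in batch 2 alone.

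Eicosanoid genes changed in both directions. Of 19 measured, 10 rose and 6 fell, with a median log2 change of 1.36. The leukotriene enzymes Alox5, Alox5ap and Lta4h rose by 2.80, 2.07 and 4.28, and the leukotriene B4 receptor Ltb4r1 by 4.65. In the prostaglandin branch Ptges, the synthase that completes prostaglandin E2 (ENSMUSG00000050737, GRCm38 chr2:30889471-30929863), stood at 0.944, 1.48 and 4.32 CPM in adults and 72, 77.3, 70.6, 77.2 and 68.7 in newborns, a difference of 5.02 ± 0.29 (SE, adjusted p = 4.24e-09). Ptgs2, the inducible cyclooxygenase upstream of it (ENSMUSG00000032487, GRCm38 chr1:150100031-150108227), stood at 253, 315 and 494 CPM in adults and 22, 27, 22.2, 26.6 and 15.6 in newborns, a difference of -3.97 ± 0.22 (SE, adjusted p = 3.95e-09). The enzymes thus moved in opposite directions, without overlap in either case, and the constitutive Ptgs1 rose by 2.04.

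Genes linked to suppression by MDSC changed in both directions: of 25 measured, 6 rose and 15 fell, with a median log2 change of -0.57. In batch 2 alone they counted 6 higher and 9 lower, so the excess of lower genes was smaller there. Arg1 and Nos2, which deplete and oxidise arginine, did not pass the expression filter, with at most 0.228 CPM for Arg1 and 1.02 CPM for Nos2 in any library. Arg2, the mitochondrial arginase (ENSMUSG00000021125, GRCm38 chr12:79130777-79156301), stood at 74.7, 126 and 153 CPM in adults and 36.3, 30.6, 46.8, 45.2 and 29.1 in newborns, a difference of -1.65 ± 0.21 (SE, adjusted p = 9.48e-06). Cd274, the gene of PD-L1, which dampens T cells (ENSMUSG00000016496, GRCm38 chr19:29367455-29388095), stood at 107, 212 and 499.9 CPM in adults and 8.18, 7.65, 11, 10.7 and 14.3 in newborns, a difference of -4.67 ± 0.46 (SE, adjusted p = 9.7e-07). No newborn library reached the lowest adult one for either gene. Cd244, a receptor used to mark PMN-MDSC in tumours, fell (-3.08). The genes that rose were Vsir, which encodes the checkpoint protein VISTA (2.17), the adhesion molecule Ceacam1 (2.65), Trem3 (2.43), the ectonucleotidase Nt5e (2.49), the lectin Lgals3 (2.49) and the inhibitory receptor Pirb (0.93). Of 21 genes of lipid uptake and storage, 12 rose and 4 fell, with a median log2 change of 0.93: Dgat2, which makes triglycerides, rose by 2.62, the fatty acid transporter Slc27a4 by 3.09, the droplet protein Plin3 by 2.40 and the acyl-CoA synthetase Acsl1 by 2.29, while the scavenger receptor Cd36 fell (-1.73); in batch 2 alone the list counted 10 higher and 2 lower. Of 15 genes of stress signalling, 3 rose and 9 fell, with a median log2 change of -0.84: Asns, asparagine synthetase, rose by 3.97, while Ppp1r15a, Atf3 and Ddit3, induced by stress, fell (-3.53, -4.64 and -2.49).

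Inflammatory genes were lower in newborn cells across several lists. Of 18 genes of the interleukin 1 system, 3 rose and 13 fell, with a median log2 change of -1.44. Il1b, the cytokine itself (ENSMUSG00000027398, GRCm38 chr2:129364570-129371139), stood at 1422, 2316 and 2627 CPM in adults and 142, 154, 156, 162 and 87.6 in newborns, a difference of -3.92 ± 0.22 (SE, adjusted p = 3.86e-09). The sensor Nlrp1b fell (-2.38), as did Nlrp3 (-2.98), while the pore-forming Gsdmd rose by 1.33, the receptor subunit Il18rap by 1.93 and the inflammasome adaptor Pycard by 1.42. Of 20 other cytokine and TNF family genes, 4 rose and 13 fell, with a median log2 change of -1.09: Csf1 and Cd40 fell (-3.74 and -1.10), and Tnfsf13b, which encodes the B cell factor BAFF, and Osm rose by 3.23 and 1.11. Tnf itself (ENSMUSG00000024401, GRCm38 chr17:35199381-35202007) stood at 15.2, 79.4 and 224 CPM in adults and 53.1, 54.7, 66.4, 57.3 and 46.3 in newborns; the groups overlapped, since adult 3 and 34 lay below every newborn library, and the difference was not called (adjusted p = 0.195).

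NF-kB genes and the immediate early genes fell together with them. Of 26 genes of NF-kB and its feedback, 4 rose and 20 fell, with a median log2 change of -1.61: Nfkb2, Rel and the adaptor Traf1 fell (-1.99, -2.88 and -3.61), as did the inhibitors Nfkbia and Tnfaip3 (-2.26 and -3.51), and Cflar, an inhibitor of caspase 8, rose by 1.06. Rela, the main transactivating subunit, was not called (0.12, adjusted p = 0.346). Of 21 genes of AP-1 and the early response, 2 rose and 17 fell, with a median log2 change of -1.49: Fosb, Egr3, Ier5 and the RNA-binding Zfp36l1 fell (-2.63, -2.94, -1.83 and -3.15). Of 10 MAP kinase phosphatases, 1 rose and 8 fell, with a median log2 change of -2.31, against 0 higher and 7 lower in batch 2 alone and 0 higher and 9 lower under upper-quartile scaling. Dusp4 (ENSMUSG00000031530, GRCm38 chr8:34807297-34819894) stood at 13.1, 38 and 93.7 CPM in adults and 0.511, 0.805, 0.361, 0.712 and 0.571 in newborns, a difference of -6.18 ± 0.63 (SE, adjusted p = 1.31e-06); Dusp1, Dusp2, Dusp10 and Dusp16 fell (-1.86, -2.95, -3.23 and -2.72). Of 14 heat shock chaperones, 1 rose and 12 fell, with a median log2 change of -1.09: Hsph1, Hsp90aa1, Hsp90ab1 and Hspe1 fell (-3.05, -1.67, -0.85 and -1.26). Of 15 genes that respond to glucocorticoids, 1 rose and 13 fell, with a median log2 change of -1.79: Tsc22d3, which encodes the steroid-induced GILZ, Klf9 and Pik3ip1 fell (-2.05, -3.22 and -3.31), and Fkbp5, another such target, rose by 1.29. Early response genes are also induced while tissue is handled, and the handling time of each library was not tested.

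Interferon target genes were low in newborns. Of 49 measured antiviral genes, 0 rose and 46 fell, with a median log2 change of -2.55. Oasl1, of the oligoadenylate synthetase family (ENSMUSG00000041827, GRCm38 chr5:114923240-114937915), stood at 37.1, 124 and 229 CPM in adults and 0, 0.403, 1.51, 1.04 and 1.43 in newborns, a difference of -6.64 ± 0.60 (SE, adjusted p = 4.5e-07). Ifit3 (ENSMUSG00000074896, GRCm38 chr19:34583531-34588731), which binds viral RNA with its relatives, stood at 30.3, 115 and 216 CPM in adults and 2.04, 3.22, 2.37, 1.92 and 3.03 in newborns, a difference of -5.59 ± 0.60 (SE, adjusted p = 2.11e-06). Its close copy Ifit3b (ENSMUSG00000062488, GRCm38 chr19:34607970-34613401) stood at 13, 56.7 and 98 CPM in adults and 0, 0, 1.64, 0.876 and 2.68 in newborns, a difference of -5.25 ± 0.68 (SE, adjusted p = 1.46e-05), and reads may be divided between these genes. No newborn library reached an adult one. Ifi203, Slfn8, Trim30d and Ifi47 had the smallest p of the list and fell (-3.78, -3.66, -3.07 and -2.73); Isg15, a ubiquitin-like protein, fell (-4.18), as did Ifit1 (-4.96). Slfn1, Adar and Cmpk2 were the 3 members not called (0.21, -0.27 and 0.12). Of 15 interferon-inducible GTPases, which attack the vacuoles of intracellular microbes, 0 rose and 14 fell, with a median log2 change of -2.82: Gbp9, Gbp4, Gbp3 and Irgm1 fell (-3.37, -3.71, -2.86 and -2.19).

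Among the receptors and factors of interferon signalling, of 18 measured, 2 rose and 11 fell, with a median log2 change of -0.43: Stat2, Irf7, Irf9 and the feedback inhibitor Socs3 fell (-1.21, -1.41, -0.90 and -2.39). Of the chains of the type I receptor, Ifnar1 fell (-0.47), with an adjusted p of 0.101 in batch 2 alone, and Ifnar2 rose by 0.63 with overlapping groups; under upper-quartile scaling the list counted 0 higher and 13 lower. The Ifitm family of membrane proteins divided, with a median of 0.17 that is -0.06 under upper-quartile scaling: Ifitm6 rose by 4.15, Ifitm1 and Ifitm5 fell (-2.29 and -1.49), and Ifitm3 was not called (0.54, adjusted p = 0.0529).

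Many of these inducible genes differed among the adult libraries. Irg1, also called Acod1, which makes itaconate in activated myeloid cells (ENSMUSG00000022126, GRCm38 chr14:103046977-103056573), stood at 1927, 637, 110.0, 1928, 661 and 99.8 CPM in adult 1, 2, 3, 32, 33 and 34 and at 11.2, 12.1, 12.6, 12.3 and 7.65 in newborns, a difference of -6.32 ± 0.85 (SE, adjusted p = 2.05e-05). Adult 1 and 32 were the highest and adult 3 and 34 the lowest libraries, and the lowest adult was still above the highest newborn library. Cxcl2, a chemokine that draws neutrophils (ENSMUSG00000058427, GRCm38 chr5:90903871-90905938), stood at 645, 453, 132, 607, 383 and 116 CPM in the same adult libraries and at 35.8, 34.6, 35.3, 38.7 and 17.8 in newborns, a difference of -3.57 ± 0.46 (SE, adjusted p = 1.43e-05). Ciart, a circadian repressor (ENSMUSG00000038550, GRCm38 chr3:95878503-95882251), stood at 80.8, 32.1, 13.1, 88.3, 35.2 and 15.2 CPM in them and at 0.511, 2.42, 1.25, 2.08 and 0.857 in newborns, a difference of -4.98 ± 0.61 (SE, adjusted p = 7.66e-06). Oasl1, Ifit3, Dusp4, Nr4a3 and Cd274 had the same order, with adult 1 above 2 above 3 and adult 32 above 33 above 34. That order held for 1793 of 14479 tested genes (12.4%). Among inducible lists it held for 27 of 49 antiviral, 15 of 26 NF-kB, 13 of 21 early response and 6 of 10 MAP kinase phosphatase genes, but for 2 of 15 interferon-inducible GTPases, 4 of 20 cytokine and TNF family genes and 3 of 14 heat shock chaperones. It also held for 12 of 25 genes linked to suppression and 8 of 17 inhibitors of the cell cycle, and for 3 of 18 specific granule genes. The lists were chosen with results of these libraries known, so these counts are a description.

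**Figure D2:**
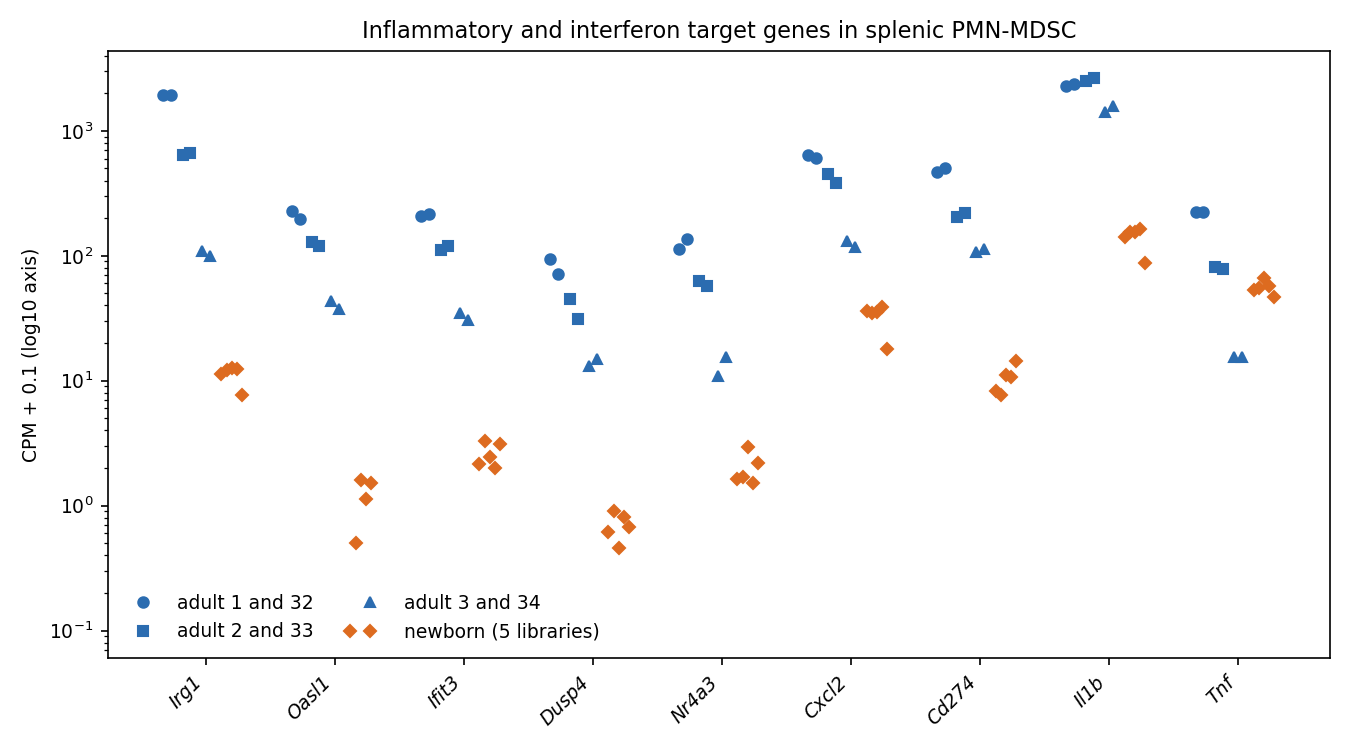
Level of inflammatory and interferon target genes in each PMN-MDSC library, in CPM on a log10 axis with 0.1 CPM added; each adult symbol marks 1 pair of resembling libraries (circles adult 1 and 32, squares 2 and 33, triangles 3 and 34), and orange diamonds are the 5 newborn libraries. Adult 1 and 32 are highest and adult 3 and 34 lowest for Irg1, Oasl1, Ifit3, Dusp4, Nr4a3, Cxcl2 and Cd274, and only Tnf overlaps between ages.

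Antigen presentation genes fell. Of 21 genes of MHC class I, 1 rose and 17 fell, with a median log2 change of -0.84: Nlrc5, their transactivator, fell (-3.54), as did the nonclassical H2-Q6, H2-Q7 and H2-M3 (-4.56, -2.46 and -2.65), and H2-K1 (-1.69); in batch 2 alone the list counted 0 higher and 17 lower. Of 12 genes of MHC class II, 0 rose and 12 fell, with a median log2 change of -3.44. Cd74, the invariant chain, stood at 2772, 3103 and 3652 CPM in adults and 268, 303, 284, 311 and 410.3 in newborns, a difference of -3.33 ± 0.13 (SE, adjusted p = 1.39e-10); H2-Ab1, H2-Eb1 and H2-DMb2 fell (-3.58, -3.55 and -2.67). B cells carry the same class II genes, and 14 of 15 measured B cell markers fell too, with a summed level of 5419.9 to 8360.4 CPM in adults and 1086 to 1484 in newborns; none of them was at 0 in either age. Ms4a1, which encodes CD20, fell (-3.46). Igha, the constant region of IgA (ENSMUSG00000095079, GRCm38 chr12:113254830-113260236), had 13461 counts over adult libraries and 1 over newborn libraries, a ratio of 9291 with an exact 95% binomial interval of 1667 to 367015. Cr2, complement receptor 2 of B cells (ENSMUSG00000026616, GRCm38 chr1:195136811-195176716), stood at 222, 279 and 468 CPM in adults and 5.62, 6.84, 6.51, 8.76 and 14.5 in newborns, a difference of -5.23 ± 0.30 (SE, adjusted p = 4.5e-09). The part of B cells in the fall of class II genes was not tested. Other genes with the largest falls were Steap4, a metalloreductase (ENSMUSG00000012428, GRCm38 chr5:7960457-7982213), Pydc4, of the interferon-inducible pyrin family (ENSMUSG00000073491, GRCm38 chr1:173566283-173599274), and Hs3st1, a heparan sulfate sulfotransferase (ENSMUSG00000051022, GRCm38 chr5:39613935-39755475). Steap4 stood at 71.8, 94.9 and 179.9 CPM in adults and 5.11, 2.82, 3.68, 3.56 and 1.37 in newborns, a difference of -5.23 ± 0.38 (SE, adjusted p = 4.74e-08). Pydc4 stood at 58.7, 69.6 and 77.6 CPM in adults and 2.56, 0.805, 2.37, 1.09 and 2.74 in newborns, a difference of -5.16 ± 0.24 (SE, adjusted p = 5.56e-10). Hs3st1 stood at 18.8, 23.4 and 30.1 CPM in adults and 1.53, 0.403, 0.756, 0.712 and 0.628 in newborns, a difference of -4.99 ± 0.24 (SE, adjusted p = 9.99e-10).

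Receptors for microbes changed in both directions, as did all tested genes, of which 32.5% were higher and 33.4% lower. Of 26 genes of Toll-like receptor signalling, 6 rose and 14 fell, with a median log2 change of -0.66: the endosomal Tlr9 and Tlr7 fell (-2.87 and -1.36), as did Tlr2 (-1.37) with overlapping groups, while the flagellin receptor Tlr5 and the adaptor Tirap rose by 1.87 and 1.60; under upper-quartile scaling the list counted 4 higher and 17 lower. Of 18 C-type lectins, 4 rose and 8 fell, with a median log2 change of -0.33: Clec12a and Clec4a2, both with inhibitory motifs, rose by 2.54 and 2.95, while Clec7a, which encodes the fungal receptor Dectin-1, and Clec4a3 fell (-3.17 and -1.69). Of 8 Fc receptors, 3 rose and 2 fell, with a median log2 change of 0.22, a median that is -0.01 under upper-quartile scaling: Fcgr3 and its signalling chain Fcer1g rose by 1.36 and 1.10, Fcer2a, the CD23 of B cells, fell (-4.20), and Pigr, at most 3.63 CPM in adults, fell (-4.27). In the complement list, where 5 rose and 4 fell, with a median log2 change of 0.02 and the median is -0.22 under upper-quartile scaling, C3, the central complement protein (ENSMUSG00000024164, GRCm38 chr17:57203970-57228136), stood at 226, 233 and 272 CPM in adults and 2896, 3870.1, 3131, 4006 and 3152 in newborns, a difference of 3.83 ± 0.11 (SE, adjusted p = 1.17e-11). Itgax and Cd55 fell (-2.36 and -1.54). With 10 of 19 measured members not called, the complement list lay below the shares of all genes in both directions. The complement list counted 2 higher and 4 lower in batch 2 alone and 2 higher and 5 lower under upper-quartile scaling. Of 21 Cd300 and paired receptors, 10 rose and 7 fell, with a median log2 change of 0.45: Sirpb1b and Sirpb1a, similar copies, fell (-2.38 and -3.16).

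Chemokine receptors were lower: of 17 measured, 0 rose and 13 fell, with a median log2 change of -1.67. The receptors Cxcr5, Ccr7 and Ccr6, which B cells also carry, fell (-3.00, -4.61 and -3.40) beside the B cell levels given above. Cxcr4, which holds neutrophils in the bone marrow (ENSMUSG00000045382, GRCm38 chr1:128588199-128592293), stood at 642, 1032 and 1056 CPM in adults and 480.4, 637, 579, 681 and 517 in newborns; adult 3 and 34 lay within the newborn range, and the difference was -0.65 ± 0.16 (SE, adjusted p = 0.003). Of 14 chemokine ligands, 1 rose and 9 fell, with a median log2 change of -1.76: Ccl6, Ccl9 and Ccl4 fell (-1.24, -1.53 and -5.05), Ccl4 with overlapping groups. Of 16 chemoattractant receptors, 6 rose and 7 fell, with a median log2 change of -0.29: S1pr1, which guides cells out of lymphoid tissue, and P2ry10 fell (-2.57 and -4.76). Of 22 adhesion genes, 10 rose and 8 fell, with a median log2 change of 0.44. Ncam1, the neural cell adhesion molecule CD56 (ENSMUSG00000039542, GRCm38 chr9:49502136-49798925), stood at 5.16, 7.45 and 8.61 CPM in adults and 190.1, 214, 208, 226 and 222 in newborns, a difference of 4.97 ± 0.14 (SE, adjusted p = 1.08e-11). Itgb2l, an integrin beta chain of neutrophils, rose by 5.16, and Itga4 fell (-2.06). Of 24 growth factor and cytokine receptors, 9 rose and 11 fell, with a median log2 change of -0.35: Il21r and Il10ra fell (-3.79 and -2.68). Of 10 Ly6 family genes, 7 rose and 3 fell, with a median log2 change of 1.33: Ly6e fell (-2.50).

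Genes of the BCL2 family, which set the survival of cells, were more often lower than higher. Of 17 BCL2 family genes, 4 rose and 10 fell, with a median log2 change of -1.23: the protective Bcl2 and Mcl1 fell (-2.97 and -1.26), as did the death-promoting Pmaip1 (-3.33), while Bak1 and Bnip3l rose by 1.31 and 1.31 and Bcl2l1, which encodes BCL-XL, by 1.15. Of 26 antioxidant genes, 12 rose and 9 fell, with a median log2 change of 0.22, a median that is -0.01 under upper-quartile scaling: Xdh, xanthine dehydrogenase, rose by 2.66, Mgst1 by 2.96, Prdx5 by 2.67 and Gpx4 by 1.53. In batch 2 alone the antioxidant genes counted 12 higher and 5 lower.

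Genes of sugar metabolism rose. Of 24 glycolysis genes, 18 rose and 3 fell, with a median log2 change of 1.73: Gpi1, Hk3, Hk1 and Aldoa rose by 2.40, 2.44, 2.25 and 1.71, while the glucose transporter Slc2a1 fell (-1.70) and its relative Slc2a3 rose by 1.75. All 7 genes of the pentose phosphate pathway, which supplies the NADPH used by the phagocyte oxidase, rose with a median of 1.33: Tkt, G6pdx, Pgd and Pgls rose by 3.64, 3.21, 2.38 and 1.33. Of 12 glycogen genes, 9 rose and 2 fell, with a median log2 change of 1.02: the self-starting Gyg, the branching Gbe1 and Pygl, which breaks glycogen down, rose by 2.52, 2.69 and 2.40. Of 74 nuclear genes of oxidative phosphorylation, 54 rose and 2 fell, with a median log2 change of 0.71; they counted 42 higher and 4 lower under upper-quartile scaling and 53 higher and 0 lower in batch 2 alone. Ndufa8, Uqcrc1, Uqcr10 and Ndufv3 rose by 1.58, 1.05, 1.39 and 1.86. Of 23 cholesterol genes, 10 rose and 8 fell, with a median log2 change of 0.25: Msmo1, Fdps and Fdft1 rose by 1.23, 1.34 and 1.21 and Sc5d fell (-1.12). Iron genes had a median of 0.02 that is -0.20 under upper-quartile scaling; of 16, 5 rose and 5 fell, among them Fech, the last enzyme of haem synthesis, which rose by 1.32, and Fth1, the ferritin heavy chain, which fell (-1.31).

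Ribosome genes fell. Of 26 genes of ribosome biogenesis, 1 rose and 23 fell, with a median log2 change of -1.22: Npm1, Ddx21, Utp20 and Gnl3 fell (-1.90, -1.82, -1.88 and -3.21). Of 76 cytosolic ribosomal protein genes, 0 rose and 62 fell, with a median log2 change of -0.74, and 0.695% of newborn counts were theirs against 1.58% of adult counts. Rplp1, Rps20, Rpl23 and Rpl39 fell (-1.25, -1.36, -1.18 and -1.19); in batch 2 alone 47 were lower and 0 higher. The export machinery of the endoplasmic reticulum changed in both directions: of 36 genes, 16 rose and 10 fell, with a median log2 change of 0.22, a median of 0.00 under upper-quartile scaling. They counted 15 higher and 6 lower in batch 2 alone and 11 higher and 12 lower under upper-quartile scaling. P4hb and Rpn1 rose by 1.24 and 1.39, and Pdia4 and Srgn, the proteoglycan that packs granules, fell (-1.73 and -2.43).

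**Figure D3:**
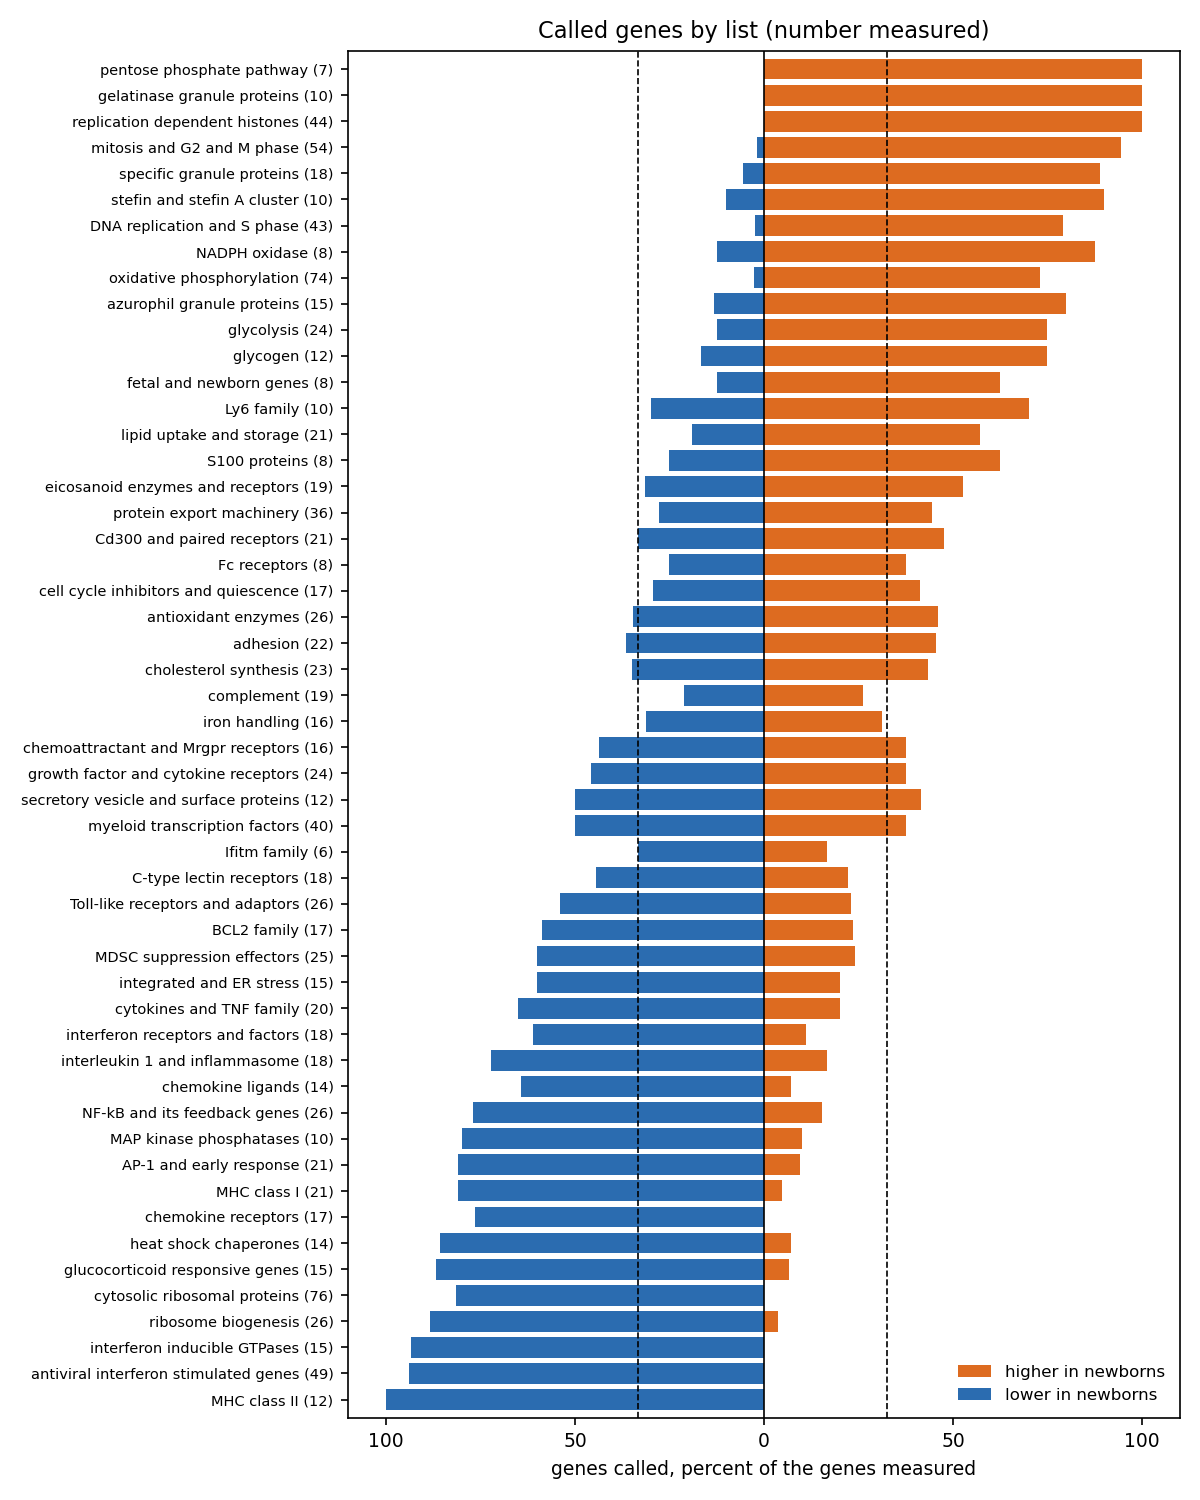
Share of each list's measured genes called higher (orange, right) and lower (blue, left) in newborn PMN-MDSC by edgeR at an adjusted p under 0.05, in percent of the genes measured; dashed lines mark the shares of all 14479 tested genes, 32.5% and 33.4%. Histone, mitosis, gelatinase granule and pentose phosphate genes are nearly all higher, and interferon target, MHC class II and ribosome biogenesis genes nearly all lower.

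Markers of other cells were present at both ages and moved in both directions. The 14 splenic macrophage markers summed to 2319 to 4865 CPM in adults and 2417 to 3090.2 in newborns; 0 rose and 3 fell. The 12 monocyte markers summed to 1741 to 2828 CPM in adults and 908 to 1254 in newborns; 1 rose and 9 fell. T cell markers summed to 152 to 272 and 59.6 to 98 CPM, with 14 of 16 lower, and NK cell markers to 12.9 to 33.7 and 5.63 to 9.71 CPM, with 6 of 8 lower and Klra8 at 0 in newborns. Plasma cell markers summed to 478 to 670.5 and 172 to 215 CPM, with 9 of 10 lower and Ighg1 at 0 in newborns. Dendritic cell markers summed to 415 to 614 and 477 to 553 CPM; 9 of 12 fell, while Ly75, which encodes DEC-205, rose by 3.59. Basophil and mast cell markers summed to 406 to 1056 and 322 to 458 CPM, although 4 of the 6 measured rose and 1 fell. Platelet markers summed to 133 to 178 and 219 to 282 CPM, with 5 of 10 higher and 1 lower. The part of these cells in the changes of other lists was not tested.

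**Figure D4:**
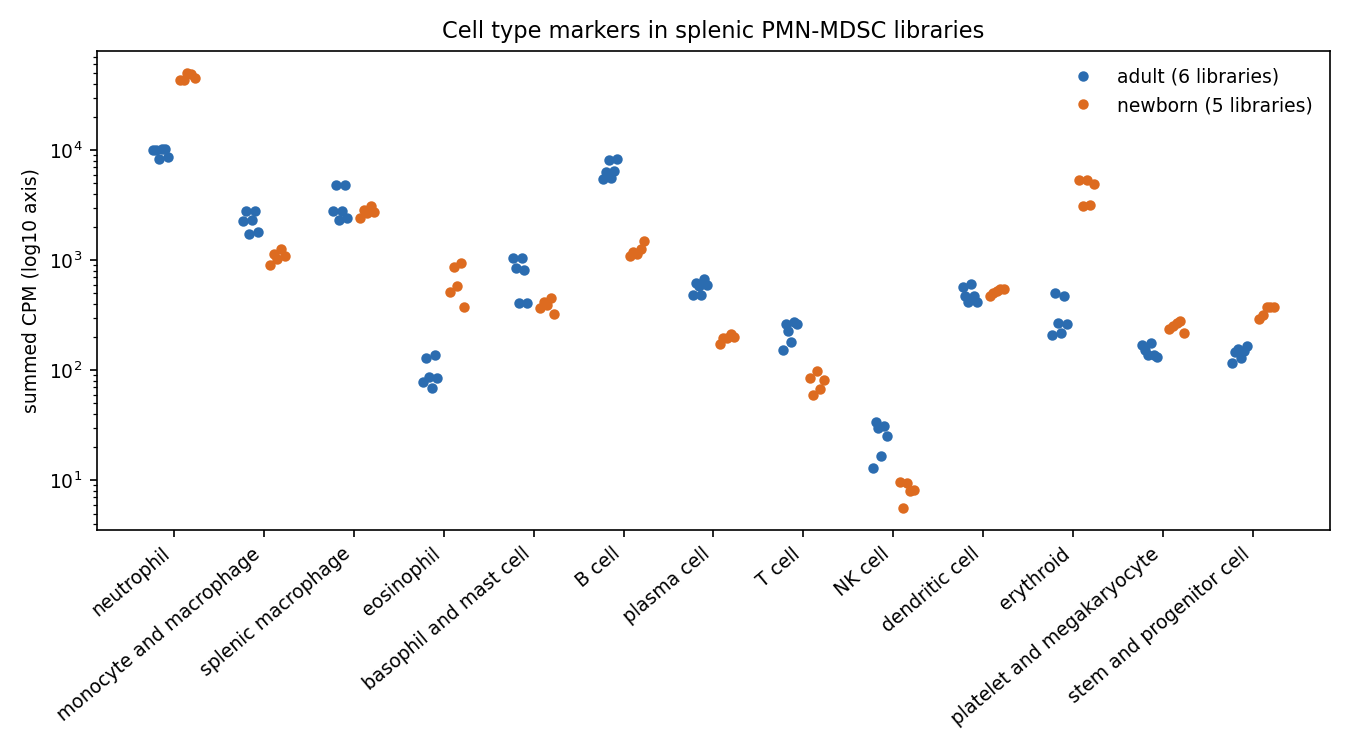
Summed level of the marker genes of each cell type in each PMN-MDSC library, in CPM on a log10 axis; blue points are the 6 adult and orange points the 5 newborn libraries. Erythroid and eosinophil sums are higher in all newborn libraries, B, T, NK and plasma cell sums are higher in all adult libraries, and splenic macrophage sums overlap.

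The age effect was set against that in M-MDSC for 31 listed genes, by the difference between the effects in 1 model of all 19 libraries, in which 2344 of 12943 genes (18.1%) were called. The M-MDSC side rests on 3 adult and 5 newborn libraries, of which batch 2 holds 1 and 2. Of 15 listed genes called, Cebpe, Cybb, Itgam, Mmp8, Stfa3 and Arid3a kept the call in batch 2 alone, with other size factors and without any single library. Cybb rose by 2.94 in PMN-MDSC and was at -0.06 in M-MDSC, a difference of 3.00 ± 0.25 (SE, adjusted p = 3.33e-07). Itgam was at 2.70 and 0.15, a difference of 2.55 ± 0.19 (SE, adjusted p = 8.7e-08). The oxidase subunit and CD11b thus carried an age effect in PMN-MDSC that M-MDSC did not show at this size. Cebpe was at 5.70 and 2.74, a difference of 2.96 ± 0.54 (SE, adjusted p = 0.000854) that was 1.81 (adjusted p = 0.0179) without adult M-MDSC replicate 28, the 1 adult library of batch 2. Mmp8 was at 3.34 and 1.62, a difference of 1.72 ± 0.23 (SE, adjusted p = 5.32e-05). Stfa3 was at 12.72 and 7.27, a difference of 5.45 ± 0.83 (SE, adjusted p = 0.000169), and Arid3a differed by 0.95 ± 0.24 (SE, adjusted p = 0.00818), or by 0.62 (adjusted p = 0.049) without that library. These genes rose more in PMN-MDSC than in M-MDSC.

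The other 9 calls were lost in at least 1 of these alternatives. Csf3r fell in PMN-MDSC and was at -0.08 in M-MDSC, a difference of -1.39 ± 0.21 (SE, adjusted p = 0.000159) that was -1.06 (adjusted p = 0.0547) in batch 2 alone. Cxcr2 was at 0.33 in PMN-MDSC and 2.48 in M-MDSC, a difference of -2.15 ± 0.70 (SE, adjusted p = 0.0396) that was lost when any 1 of 14 libraries was left out and was -1.06 (adjusted p = 0.0766) without adult M-MDSC replicate 28. Ltf, Camp, Ngp and Olfm4 rose in both cell types, with differences of 1.59, 1.97, 1.69 and 1.61 and adjusted p of 0.0225, 0.0284, 0.0397 and 0.0223. Without adult M-MDSC replicate 28, those of Ltf, Camp, Ngp and Olfm4 were 1.39 (adjusted p = 0.0646), 1.23 (adjusted p = 0.151), 1.40 (adjusted p = 0.107) and 0.28 (adjusted p = 0.895). Oasl1 and Ptgs2 differed by -3.23 ± 0.95 (SE, adjusted p = 0.0225) and -2.60 ± 0.79 (SE, adjusted p = 0.0273), and by -2.90 (adjusted p = 0.0603) and -2.03 (adjusted p = 0.0773) without that library. Ptges differed by 3.37 ± 1.06 (SE, adjusted p = 0.0334), but without adult M-MDSC replicate 1 the difference was 1.30 (adjusted p = 0.486) and in batch 2 alone it was -6.12 (adjusted p = 0.0654). Most of the other listed genes also changed with age in M-MDSC. The M-MDSC effect was called for S100a8 (4.16), S100a9 (3.78), Elane (4.28), Mpo (5.06), Igf2bp3 (4.53), Mki67 (3.25), Prg2 (8.1) and Epx (11.1). It was also called for Il1b (-2.41), Cd74 (-4.26), Cd274 (-2.59), Arg2 (-5.50) and Irg1 (-7.66), but not for Dusp4, Cxcr4 or Ly6g. For S100a8, S100a9, Elane, Mpo, Igf2bp3, Mki67, Il1b, Cd74, Cd274, Arg2, Irg1, Dusp4, Cxcr4, Ly6g, Prg2 and Epx no difference was called. In batch 2 alone S100a9, Il1b, Cd74, Cd274 and Mki67 were called as well, at 1.24 (adjusted p = 0.0478), -2.72 (adjusted p = 0.0206), 2.05 (adjusted p = 0.0375), -5.87 (adjusted p = 0.0047) and -3.45 (adjusted p = 0.00189). The fit gave no usable error for Epx, whose adult PMN-MDSC libraries were all at 0.

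**Figure D5:**
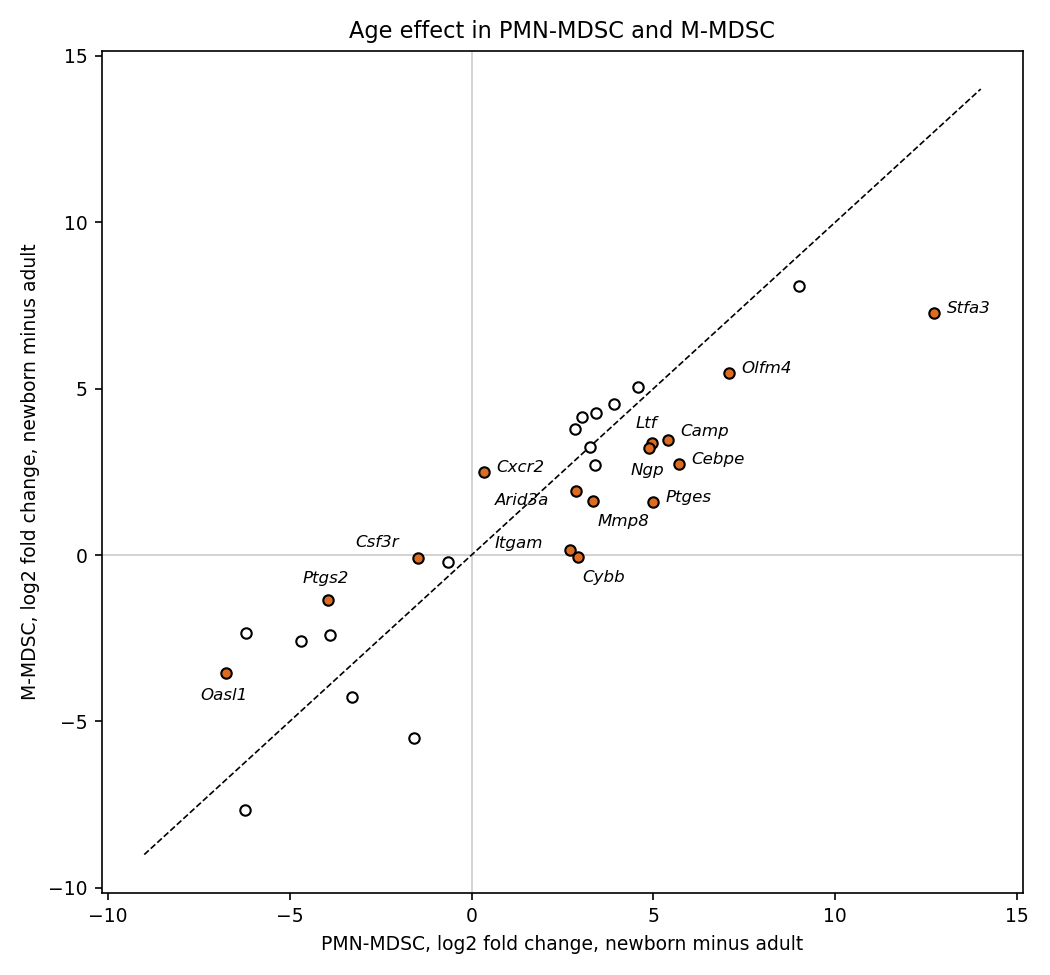
Age effect (log2 fold change, newborn minus adult) of listed genes in PMN-MDSC (x axis) and M-MDSC (y axis), from 1 model of all 19 libraries, with the diagonal where the effects are equal; filled points differ between the cell types at an adjusted p under 0.05, open points do not, and Epx is left out. Cybb, Itgam, Csf3r, Cebpe and Stfa3 lie farther from 0 in PMN-MDSC than in M-MDSC.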

How the data were processed

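Bulk RNA-seq of sorted spleen cells was read as 50 bp single-end reads from total RNA libraries, per the labels' protocols. The deposited values are estimated counts per gene, made with RSEM 1.2.3 on mm10 per the submitters' processing notes, which also name DESeq2 without its role; for the aligner and the annotation used, the sources used here give no name. Estimated counts were whole numbers. Gene positions came from GENCODE M21 (GRCm38), which matched 37570 of 38887 genes.

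The 11 PMN-MDSC libraries were grouped by their labels. Genes were filtered with filterByExpr, scaled by TMM and tested with edgeR 4.0.16 (quasi-likelihood, R 4.3.3), with batch as a covariate, 8 residual degrees of freedom and Benjamini-Hochberg adjustment over 14479 genes; called means an adjusted p under 0.05. Log2 changes are newborn minus adult with standard errors. The difference between cell types was a contrast over all 19 libraries and 12943 genes. The scripts were checked on simulated data. Nothing says that libraries came from separate animals, so a p-value sets the ages against the spread among libraries, which may be technical.

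Lists were described by counts of called members and by the median of those that passed the filter, with no test; members that did not pass are left out of these counts. Members and lists were chosen with earlier results of these data known. Named genes were the 12 largest changes in each direction among genes called in all libraries and in batch 2 alone with a mean of at least 20 CPM, the 6 highest levels at each age, the 4 smallest p of each list with other members that help to say which moved, and 31 genes always given. A few genes within this rule are not reported here. Where a group had 0 counts, folds are lower bounds against 3 counts over the group; intervals cover counting error only. Promoters were the 250 bases before the RefSeq start. Alternatives included other scalings, filters and tests (DESeq2 1.42.0, limma 3.58.1), single batches, summed or blocked resembling libraries and each library left out.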

Additional observations from a re-analysis of the deposited data

Results flagged for a closer look

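Newborn replicate 39 stood apart from the other newborn libraries in 4 genes by Dixon's criterion for a single distant value. Mpo was highest there at 61.1 CPM, and Il1b, Irg1 and Cxcl2 were lowest there at 87.6, 7.65 and 17.8 CPM. The same library had the highest Kdm5d and the lowest Xist of the newborn libraries, at 19.9 and 162.5 CPM. Among adult libraries, replicate 2 was distant for Mpo at 5.66 CPM, a value of few counts. These are 5 of 108 checks. Chance flags about 1 in 20 where values are separate, which libraries that resemble each other in pairs may not be. That rate therefore cannot be set against these flags, and their cause was not tested.

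The age effect differed between PMN-MDSC and M-MDSC, by the contrast in edgeR, for 15 of 31 listed genes. On the log2 scale, PMN-MDSC minus M-MDSC, it was 5.45 for Stfa3, 3.37 for Ptges, 3.00 for Cybb, 2.96 for Cebpe, 2.55 for Itgam, 1.97 for Camp, 1.72 for Mmp8, 1.69 for Ngp, 1.61 for Olfm4, 1.59 for Ltf and 0.95 for Arid3a. It was -3.23 for Oasl1, -2.60 for Ptgs2, -2.15 for Cxcr2 and -1.39 for Csf3r. Of these calls, 9 were lost under at least 1 alternative.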

How the results depend on the processing

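Counts of called genes kept within 1.5 times of 4710 higher and 4838 lower under every alternative tried other than those named here. They were 2851 and 2453 in batch 1 alone, 3024 and 2766 with a replicate block, and 1793 and 1880 in a test against a 2-fold change. In the fit on all 19 libraries 2657 were lower. The differences between cell types numbered 2344, against 4254 in batch 2 alone. Leaving out single libraries gave 4373 to 4849 higher, 4410 to 4859 lower and 2021 to 2905 differences. Of 278 named genes called, 271 kept the call in batch 2 alone, 272 with resembling libraries summed, 275 with upper-quartile scaling and 278 with DESeq2. Fewer kept it in batch 1 alone (264), in the fit on all 19 libraries (266) and with a replicate block (267). Against a 2-fold change 246 kept it. The genes of largest change had to be called in batch 2 alone, and many others were chosen by a small p, so these numbers are partly fixed by the choice.

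Adult and newborn libraries share replicate numbers 2 and 3, whose deviations correlated at -0.0986 and 0.0153. Since newborn 2 and 3 are mirror images after centring, these values cannot decide whether libraries of 1 number share more than that number. With a replicate block, which leaves 1 residual degree of freedom, 3024 genes were higher and 2766 lower, and the change was 0.0133 for Cstb, 0.22 for Cebpa and 0.42 for Tnf.

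Some values changed sign under other settings. In batch 1 alone the change was 0.0498 for Cebpa. With upper-quartile scaling it was -0.0904 for Slpi, -0.0989 for Rela and -0.0964 for Cmpk2. Without single libraries the change was -0.0014 to 0.22 for Slpi, -0.27 to 0.0229 for Cebpa and -0.0961 to 0.25 for Cmpk2. With upper-quartile scaling the medians were -0.06 for the Ifitm family, -0.01 for Fc receptors, -0.22 for complement, -0.01 for antioxidant enzymes and -0.20 for iron handling. The difference between cell types was -6.12 for Ptges, 0.30 for S100a8, 1.24 for S100a9, 0.34 for Elane, -1.20 for Prg2, -5.72 for Irg1, -3.63 for Ly6g, -3.45 for Mki67, -3.90 for Arg2 and 0.00879 for Cxcr4 in batch 2 alone, which holds 1 adult M-MDSC library, and -0.0643 for Mki67 with DESeq2 size factors. Without single libraries that difference was -1.25 to 0.17 for Elane, -0.30 to 2.54 for Prg2, -4.52 to 2.47 for Irg1, -2.85 to 2.87 for Ly6g, -0.41 to 0.73 for Mki67 and -0.0957 to 5.27 for Arg2. The cause of these changes was not tested. Depth in batch 1 limits genes of few counts, since 3 counts stood for 3.23 CPM in adult 1 and 0.0571 CPM in adult 33.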
